A study of Mus musculus with 15 samples.

Results

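This account covers the 97 genes that encode subunits of the oxidative phosphorylation complexes, measured in mouse primary lung fibroblasts. They were taken by gene symbol from the 48440 genes counted (21683 of them protein-coding): Nduf genes of the a, b, c, s and v series, Sdha to Sdhd, and genes whose symbols begin with Uqcr, Cox4 to Cox8 or Atp5, together with the protein-coding genes of the mitochondrial genome. The nucleus encodes 84 of them (37 in complex I, 4 in complex II, 8 in complex III, 18 in complex IV and 17 in complex V by symbol) and the mitochondrial genome 13 (7, 0, 1, 3 and 2). The rule used symbols and no measured value. A few nuclear genes that fit the symbol pattern are not plain subunits of the complex their name gives: Ndufa4 is known as a complex IV subunit, Ndufa4l2 is its hypoxia-inducible paralogue, Cox7a2l is a factor of respiratory supercomplexes, and Atp5s (coupling factor B) is not counted among the ATP synthase subunits.

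The cells were C57BL/6 fibroblast strains, 3 per genotype, in 5 groups of 3 libraries. The groups were Atm-/- at passage 8 (AT_p8 in the plots), Atm-/- at passage 2 (AT_p2), Atm+/+ harvested 10 days after 10 Gy of X-rays (IR, labelled passage 2), Atm+/+ at passage 8 (WT_p8) and Atm+/+ at passage 2 (WT_p2). All were grown at 3% oxygen and 5% CO2 in medium with 15% serum. How many days the unirradiated passage 2 cells were cultured before harvest is not given in the sources used here; effects of irradiation and of days in culture cannot be told apart. No irradiated Atm-/- group is used here. Atm encodes a kinase of the DNA damage response, and its counts were low in all groups (0.873 to 3.10 CPM), with no comparison passing the test. The deleted part of the gene is not given in the sources used here; these counts do not check the genotype labels. Values are given in the order of replicates 1, 2 and 3. Whether same-numbered replicates of different groups share a strain is not given in the sources used here.

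Oxidative phosphorylation passes electrons from NADH and succinate through complexes I and II to coenzyme Q, on to cytochrome c by complex III and to oxygen by complex IV. Complexes I, III and IV pump protons, and complex V, the ATP synthase, uses the gradient. Complex II is encoded wholly in the nucleus, while the other complexes combine nuclear subunits, translated in the cytosol and imported, with core subunits translated from mitochondrial DNA, so that their assembly draws on both genomes.

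Library totals ran from 13.6 to 39.2 M counts. A pair of libraries stood apart. At equal depth 15037 genes were detected in Atm-/- passage 8 replicate 3 and 17226 in Atm+/+ passage 2 replicate 3, against 20101 to 21978 in the other 13 libraries. Over the 81 nuclear members tested, the deviations of these libraries from the median over all libraries had a Spearman's rho of 0.74 with each other. Atm+/+ passage 2 replicate 1, which detected 20367 genes, lay along the same axis (rho 0.89 with replicate 3 and 0.60 with Atm-/- passage 8 replicate 3), whereas Atm+/+ passage 2 replicate 2 did not (0.03 and -0.06). These rho values describe members that share libraries and are no test. Counts and medians of the members and of the lists below are therefore also given from a second fit of 13 libraries without the pair that stood apart. All libraries of that fit are also in the first, so passing in both is no independent support. Fibroblast markers were present in every group (10 of 10). Summed macrophage markers were high in irradiated (1657 to 2771 TPM), Atm-/- passage 2 (1056 to 1564 TPM) and Atm+/+ passage 2 cells (2105 to 2408 TPM) and low in Atm-/- passage 8 (19.5 to 61.6 TPM, with Adgre1 and Ptprc at 0) and Atm+/+ passage 8 cells (68.0 to 107.9 TPM). In bulk RNA, fewer cells of a type and less RNA per cell cannot be told apart.

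After the filter on low counts 94 members were tested among 18167 genes, all 13 mitochondrial and 81 nuclear. The 3 untested members are tissue-restricted complex IV isoforms. Cox8c, a testis isoform, had 0 counts in every library, which allows at most 3 counts a library (0.0765 to 0.220 CPM, counting error only). Cox8b, a heart and muscle isoform in the mouse, had 0 to 8 counts. Cox7b2, another testis isoform, had 0 to 4 counts except in Atm+/+ passage 2 replicate 3, which had 23. The members with the highest mean TPM (a level per transcript length, scaled to the same total in every library) were Ndufa4l2 (1029) and Ndufa2 (775) in complex I, Sdhb (159) and Sdhd (126) in complex II, and Uqcrh (528) and Uqcr10 (415) in complex III. In complex IV they were Cox4i1 (1006) and Cox6a1 (869.7), and in complex V Atp5b (676), the catalytic beta subunit, and Atp5g3 (486), a c-ring subunit.

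**Figure D1:**
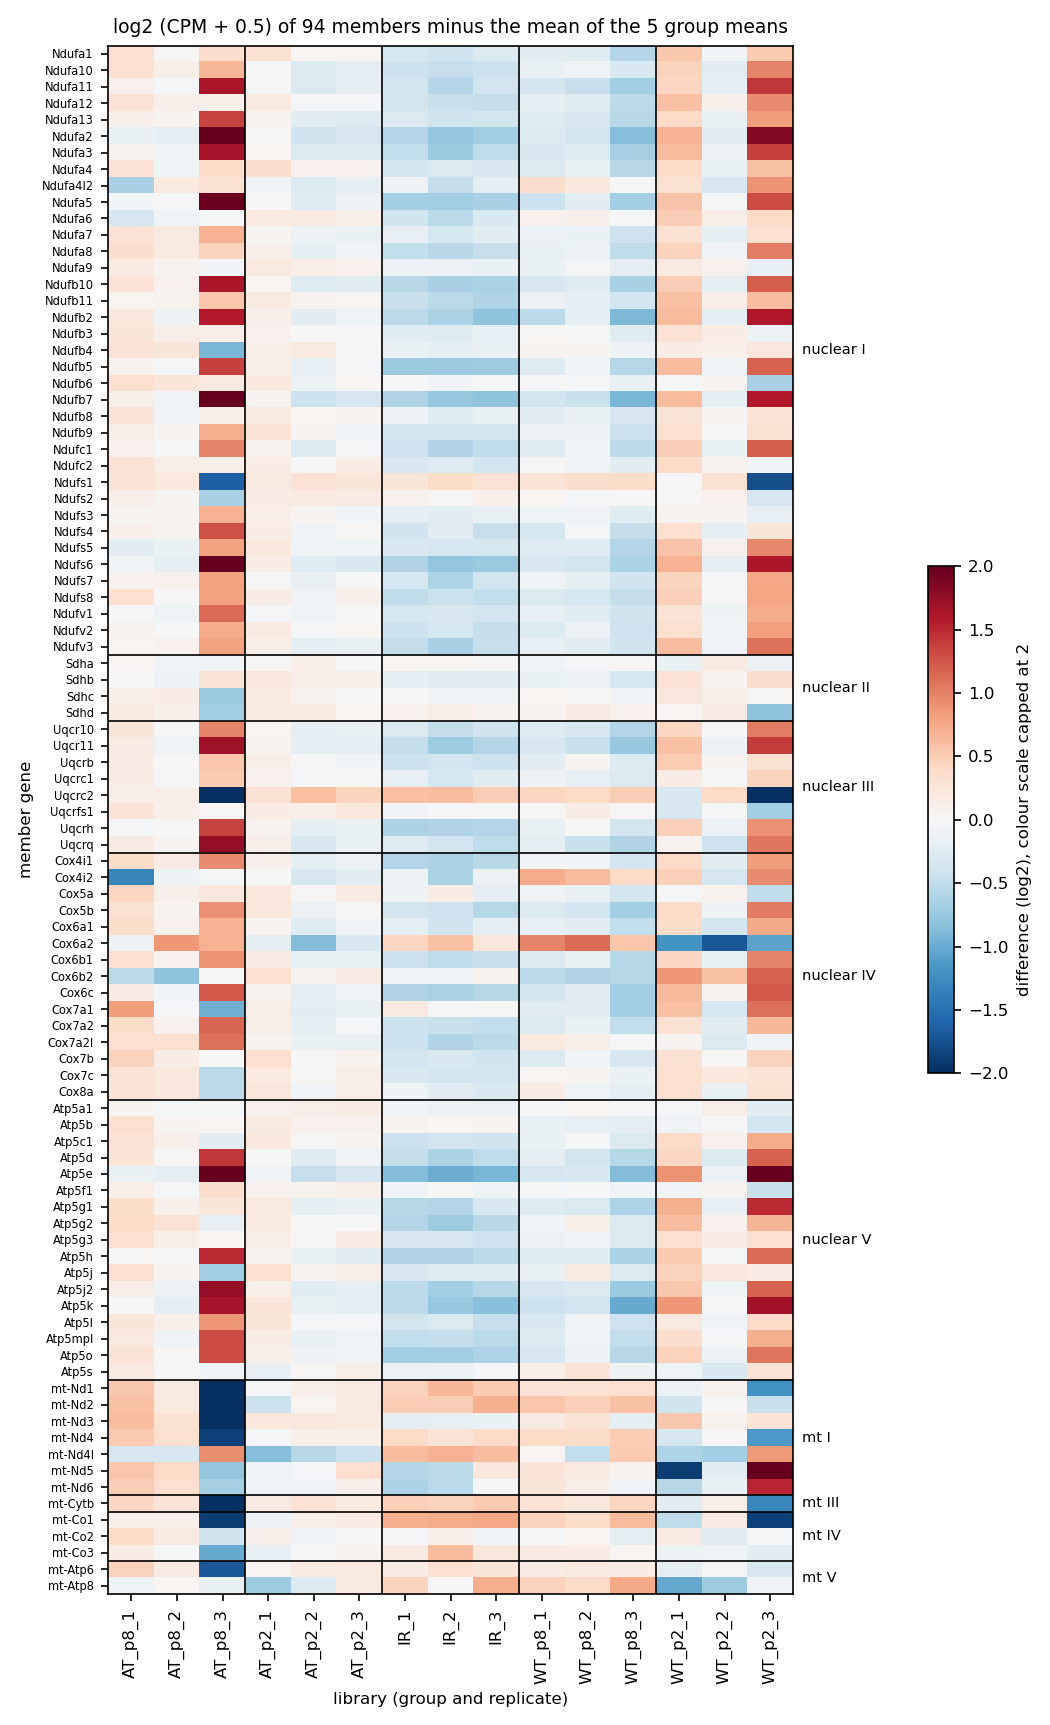
Levels of the 94 tested members (rows, nuclear members by complex above the mitochondrially encoded ones) in 15 libraries (columns, by group), as log2 (CPM + 0.5) minus the mean of the 5 group means, with red for higher and blue for lower. Most nuclear members are pale blue in the 3 irradiated and 3 Atm+/+ passage 8 libraries and red in Atm+/+ passage 2 replicates 1 and 3, and replicate 3 of Atm-/- passage 8 and of Atm+/+ passage 2 show the largest departures, with most mitochondrial members deep blue in the Atm-/- one.

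Nuclear and mitochondrial members were first compared as sums of TPM. The 84 nuclear members summed to 19155, 18529 and 22773 TPM in Atm-/- passage 8, 20009, 18917 and 18933 TPM in Atm-/- passage 2, 17161, 16915 and 16896 in irradiated, 17009, 17008 and 15593 in Atm+/+ passage 8, and 21749, 19220 and 23526 in Atm+/+ passage 2 cells. Irradiated and Atm+/+ passage 8 libraries were all below every library of the other 3 groups. The 13 mitochondrial members summed to 23564, 21648 and 5501 TPM in Atm-/- passage 8, 19418, 22738 and 22643 TPM in Atm-/- passage 2, 26679, 30254 and 29094 in irradiated, 23019, 22637 and 25205 in Atm+/+ passage 8, and 15231, 21125 and 14802 in Atm+/+ passage 2 cells. The irradiated libraries were the highest of the series and Atm-/- passage 8 replicate 3 the lowest.

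The log2 ratio of the mitochondrial to the nuclear sum was -0.51 ± 1.33 in Atm-/- passage 8, 0.16 ± 0.18 in Atm-/- passage 2, 0.75 ± 0.10 in irradiated, 0.51 ± 0.16 in Atm+/+ passage 8 and -0.35 ± 0.43 in Atm+/+ passage 2 cells (SD, n = 3 each). Irradiated cells had the highest mean. Without the libraries that stood apart, the mean was 0.26 in Atm-/- passage 8 and -0.19 in Atm+/+ passage 2 cells. Irradiated and Atm+/+ passage 8 cells had neighbouring means and overlapping ranges (0.64 to 0.84 and 0.41 to 0.69). Neither overlapped Atm+/+ passage 2 cells (-0.67 to 0.14), above which irradiated cells lay by 1.10 and passage 8 cells by 0.86. The difference of Atm-/- passage 8 from Atm-/- passage 2 cells was -0.67 with all libraries and 0.10 in 13 libraries, so its direction rested on 1 library. Since TPM within a library sum to a fixed total and the sums rest on few abundant genes, no p is given for the ratio.

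**Figure D2:**
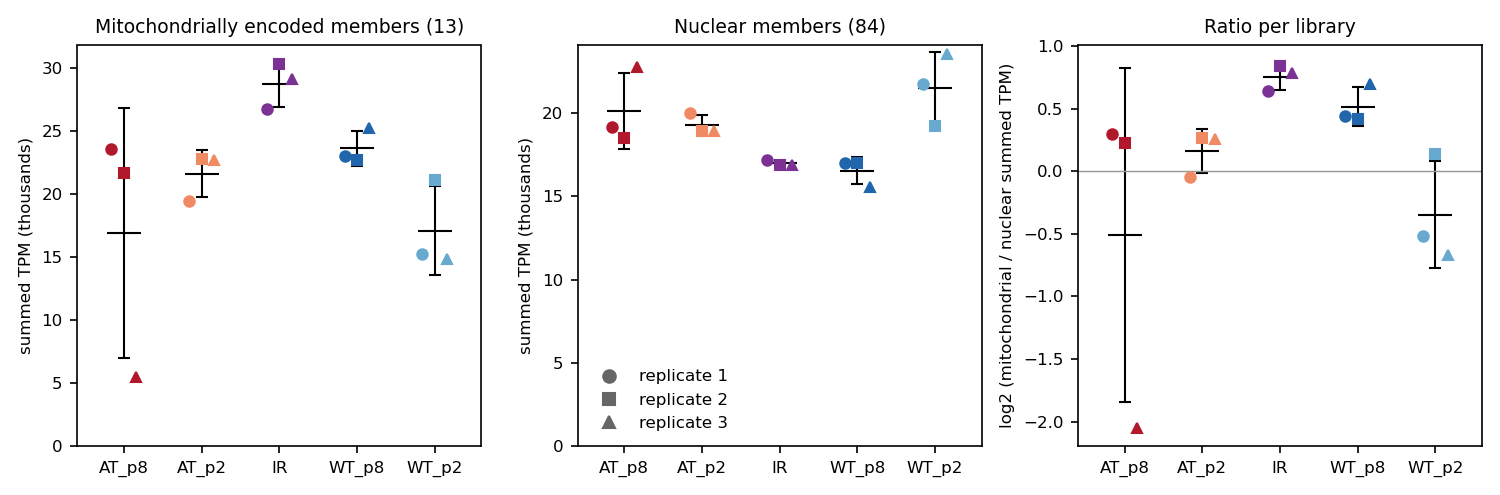
Summed TPM of the 13 mitochondrially encoded members (left) and the 84 nuclear members (centre), and the log2 of their ratio (right), for each library of the 5 groups. Symbols are replicates and black bars are mean and SD (n = 3); irradiated and Atm+/+ passage 8 libraries have the highest ratios (0.41 to 0.84) and Atm-/- passage 8 replicate 3 the lowest (-2.05).

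Irradiated cells were then compared with Atm+/+ passage 2 cells, the comparison that asks what differed 10 days after the X-rays. Of 81 nuclear members tested, 48 passed lower in irradiated cells, 1 passed higher (Cox6a2) and 32 did not pass, with a median log2 fold change of -0.75 against -0.01 over all 18167 genes. Of all genes 27.5% passed in either direction and 16.5% passed lower. The counts lower were 22 of 37 in complex I, 1 of 4 in complex II, 5 of 8 in complex III, 8 of 15 in complex IV and 12 of 17 in complex V. In complex II only Sdhb, the iron-sulfur subunit, passed. In the 13-library fit 57 nuclear members passed lower and 2 higher (median -0.55), against 46.3% of all genes in either direction. Of the 48 members lower with all libraries, 47 passed lower again (the exception was Ndufb8). The fits share libraries, and the share of all genes passing again is not given here, so this is no independent support.

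The members that fell furthest included accessory subunits of complex I and small subunits of complex V. Atp5e, the epsilon subunit of the F1 part, had 171, 166 and 168 TPM in irradiated cells and 447, 273 and 792 TPM in Atm+/+ passage 2 cells, a log2 fold change on counts of -2.14 (SE 0.67, adjusted p = 0.0315). The groups did not overlap, but passage 2 replicate 3 was far above the other replicates, and the change was -1.36 in 13 libraries. Atp5k, subunit e of the membrane part, had 299, 264 and 243 TPM in irradiated cells and 597, 401 and 837 TPM in passage 2 cells, a change of -1.71 (SE 0.47, adjusted p = 0.0165). Ndufs6, a zinc-binding accessory subunit of complex I, had 96.4, 89.5 and 88.4 TPM in irradiated cells against 183, 123 and 276 TPM in passage 2 cells, a change of -1.62 (SE 0.52, adjusted p = 0.0347). Both were lower in each irradiated library than in each passage 2 library, with replicate 2 the lowest of the passage 2 libraries. The others of the largest decreases were the complex I accessory subunits Ndufb2 (-1.54), Ndufb5 (-1.40) and Ndufa5 (-1.40), the complex III subunit Uqcr11 (-1.35) and Atp5g1 (-1.34), which encodes the c subunit of the ATP synthase rotor. All 8 stayed lower and passing in 13 libraries, where their changes lay between -1.36 and -0.79.

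Each Atm+/+ passage 2 library was also set singly against the 3 irradiated ones, a description chosen after the values were seen. Of the 81 nuclear members, 69, 67 and 66 were above all irradiated libraries in passage 2 replicates 1, 2 and 3, where 44.9, 44.5 and 41.0% of all genes were. The count of members passing moved with the libraries in the fit, as did the share of all genes passing. It was 50 with all libraries (27.5% of all genes). It was 15, 16 and 18 without irradiated replicates 1, 2 and 3 (14.4, 14.5 and 14.8%), and 30, 60 and 18 without passage 2 replicates 1, 2 and 3 (18.5, 37.2 and 19.0%). Summed smooth muscle and pericyte markers ran from 14164 to 16085 TPM in irradiated and from 2853 to 3602 TPM in passage 2 cells (9 of 9 detected in both), while summed macrophage markers overlapped (1657 to 2771 and 2105 to 2408 TPM). Their part in these changes was not tested.

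Promoters are shown for these members because 48 of them passed in the same direction. The motif of NRF1, a regulator of respiratory genes, was searched as GCGCA, any base (N), GCGC, and that of the ETS family, which includes GABP, as CCGGAAG, both on either strand, in RefSeq windows from 250 bases before to 50 bases after a gene's start (GRCm38.p6). Windows matched 68 of the 84 nuclear members. The NRF1 letters stood in 17 of them (25.0%), the ETS letters in 16 (23.5%) and either in 29 (42.6%), against 5.19, 9.93 and 14% of the 27025 genes in the promoter table. Members lower in irradiated cells and members that did not pass held either motif in 19 of 43 (44.2%) and 10 of 23 (43.5%) windows. A match describes letters in a window and is no evidence of binding. Printed below, per complex, is the motif-holding member with the lowest adjusted p among those lower in irradiated cells, 5′ to 3′ on the gene's strand, with the matched motif in capitals. Ndufa6 (chr15:82354242-82354541, minus strand) and Atp5g2 (chr15:102670998-102671297, minus strand) held the NRF1 letters. Sdhb (chr4:140961021-140961320, plus strand), Uqcrh (chr4:116075021-116075320, minus strand) and Cox6b1 (chr7:30626065-30626364, minus strand) held the ETS letters.
Ndufa6: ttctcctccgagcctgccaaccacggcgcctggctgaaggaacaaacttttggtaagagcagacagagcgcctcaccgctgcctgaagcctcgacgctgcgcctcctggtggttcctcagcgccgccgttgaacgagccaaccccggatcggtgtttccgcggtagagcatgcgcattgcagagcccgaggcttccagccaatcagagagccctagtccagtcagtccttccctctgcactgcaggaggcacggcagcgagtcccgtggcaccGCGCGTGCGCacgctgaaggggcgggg
Sdhb: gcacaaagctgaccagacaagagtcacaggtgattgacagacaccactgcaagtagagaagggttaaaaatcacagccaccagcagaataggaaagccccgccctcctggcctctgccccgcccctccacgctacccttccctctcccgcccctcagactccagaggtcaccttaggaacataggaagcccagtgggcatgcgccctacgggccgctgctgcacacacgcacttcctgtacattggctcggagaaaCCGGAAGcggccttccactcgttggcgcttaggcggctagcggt
Uqcrh: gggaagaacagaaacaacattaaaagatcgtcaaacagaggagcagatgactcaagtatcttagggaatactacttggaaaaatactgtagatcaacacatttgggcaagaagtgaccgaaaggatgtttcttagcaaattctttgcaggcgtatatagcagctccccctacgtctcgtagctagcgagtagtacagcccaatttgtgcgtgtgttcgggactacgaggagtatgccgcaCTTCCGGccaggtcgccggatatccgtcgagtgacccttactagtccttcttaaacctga
Cox6b1: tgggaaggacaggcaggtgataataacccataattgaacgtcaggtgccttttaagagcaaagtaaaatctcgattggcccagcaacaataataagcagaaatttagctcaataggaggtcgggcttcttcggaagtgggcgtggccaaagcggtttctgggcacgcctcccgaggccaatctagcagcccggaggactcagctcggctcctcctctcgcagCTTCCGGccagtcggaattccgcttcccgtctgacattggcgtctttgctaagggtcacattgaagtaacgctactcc
Atp5g2: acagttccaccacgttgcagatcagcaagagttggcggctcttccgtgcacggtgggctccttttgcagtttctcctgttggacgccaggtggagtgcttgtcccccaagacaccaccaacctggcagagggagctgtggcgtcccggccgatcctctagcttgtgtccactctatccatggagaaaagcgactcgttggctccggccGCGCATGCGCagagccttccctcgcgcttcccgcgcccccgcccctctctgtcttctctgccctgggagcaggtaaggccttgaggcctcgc

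Ndufa6, an accessory subunit of complex I, had 205, 196 and 223 TPM in irradiated and 288, 278 and 217 TPM in Atm+/+ passage 2 cells, a change of -0.75 (SE 0.13, adjusted p = 0.00132). Its ranges overlapped in TPM, with passage 2 replicate 3 inside the irradiated range. Sdhb changed by -0.45 (SE 0.13, adjusted p = 0.0188), also with overlap in TPM. Uqcrh, the hinge protein of complex III, changed by -1.10 (SE 0.33, adjusted p = 0.0265) and Cox6b1 by -0.95 (SE 0.26, adjusted p = 0.0163), both without overlap. Atp5g2, a c-subunit gene, had 56.5, 54.8 and 58.7 TPM in irradiated and 101, 85.8 and 84.2 TPM in passage 2 cells, without overlap, and changed by -1.12 (SE 0.19, adjusted p = 0.00116).

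Of the mitochondrial members 0 passed lower in irradiated cells with all libraries. mt-Atp8 passed higher and the other 12 did not pass, with a median log2 fold change of 0.66 over the 13. In 13 libraries 9 passed higher, 1 lower (mt-Nd3) and 3 did not pass, with a median of 0.56. mt-Co1, the catalytic subunit of complex IV, had 6774, 7236 and 7106 TPM in irradiated and 2205, 4311 and 685 TPM in Atm+/+ passage 2 cells, and its log2 fold change was 1.26 (SE 0.47, adjusted p = 0.0623) with all libraries and 0.93 (adjusted p = 0.000882) in 13. All irradiated libraries were above all passage 2 libraries, which spread widely. mt-Atp8, a subunit of the ATP synthase membrane part, had 46, 34.2 and 58.4 TPM in irradiated and 10.5, 17.2 and 19 TPM in passage 2 cells, a change of 1.11 (SE 0.37, adjusted p = 0.0386), without overlap. The gene overlaps mt-Atp6, and its level is low, so how reads in the shared stretch were assigned bears on its value. mt-Nd4l, which overlaps mt-Nd4, had 68.1, 74.9 and 68.2 TPM in irradiated and 20.3, 23.9 and 48.5 TPM in passage 2 cells, and its change was 0.66 (SE 0.47, adjusted p = 0.307) with all libraries and 1.45 (adjusted p = 0.000563) in 13.

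**Figure D3:**
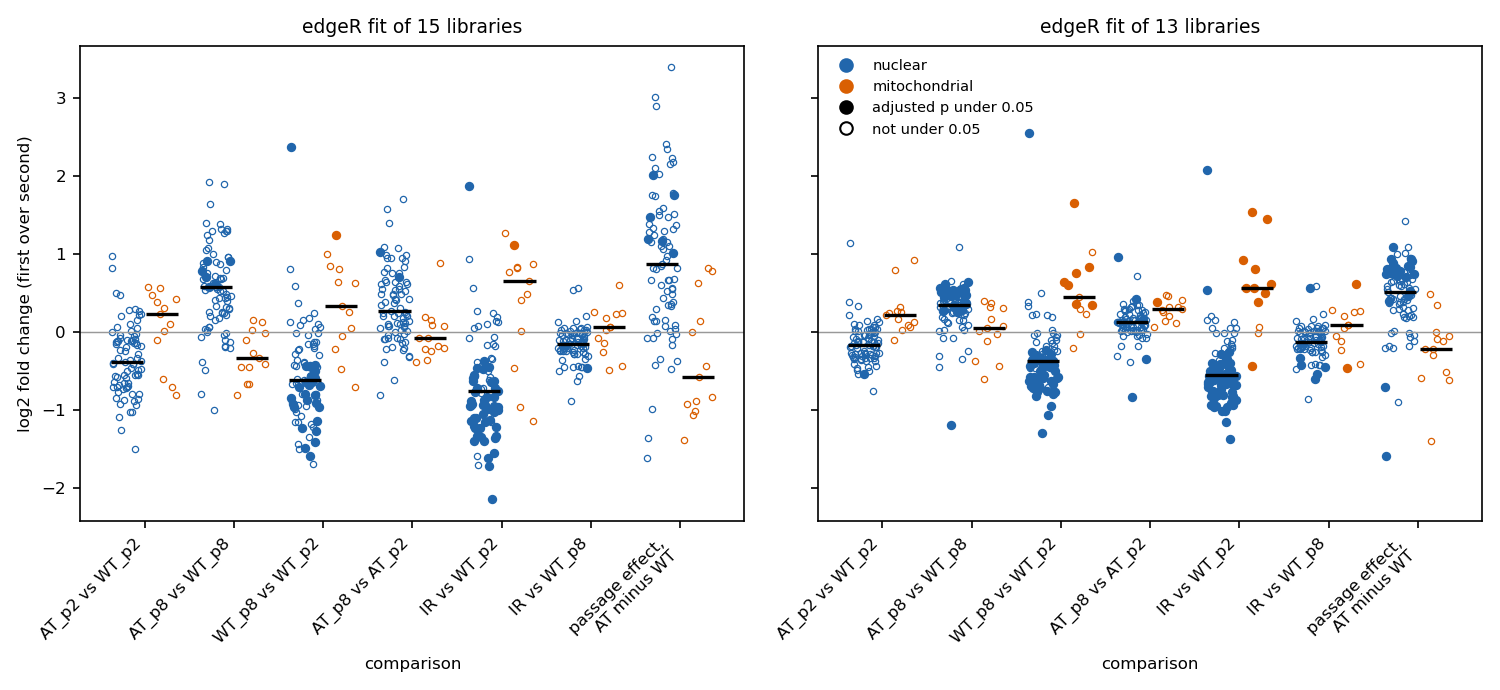
Log2 fold changes of the 81 nuclear (blue) and 13 mitochondrially encoded members (orange) in 7 comparisons, from the edgeR fit of 15 libraries (left) and of 13 libraries (right). Filled points have an adjusted p under 0.05 and black lines are medians; the nuclear medians for IR against WT_p2 are -0.75 and -0.55 and the mitochondrial ones 0.66 and 0.56.

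Atm+/+ cells at passage 8 were compared with Atm+/+ cells at passage 2. Of the 81 nuclear members 25 passed lower at passage 8, 1 passed higher (Cox6a2) and 55 did not pass, with a median log2 fold change of -0.61 against 0.00 over all genes, of which 23.3% passed in either direction and 13.5% lower. In 13 libraries 47 passed lower and 1 higher (median -0.37), against 40.1% of all genes in either direction. Cox6b2, a testis isoform of a complex IV subunit, had 92, 88.2 and 99.5 TPM at passage 8 and 219, 222 and 218 TPM at passage 2, a change of -1.48 (SE 0.19, adjusted p = 0.000123). This was the lowest adjusted p of any member in the comparison, and the groups were far apart. Atp5k had 271, 281 and 202 TPM at passage 8 and 597, 401 and 837 TPM at passage 2, a change of -1.59 (SE 0.46, adjusted p = 0.0254). Ndufs8, a core subunit that carries iron-sulfur clusters, had 95, 90.9 and 92.2 TPM at passage 8 and 145, 129 and 144 TPM at passage 2, a change of -0.84 (SE 0.21, adjusted p = 0.0104). Neither overlapped between passages, and in 13 libraries the changes were -1.29 for Cox6b2, -1.06 for Atp5k and -0.62 for Ndufs8, all passing. Other large decreases were Ndufb2 (-1.40), Uqcr11 (-1.26), Atp5g1 (-1.23), Cox6c (-1.14), Cox5b (-0.96) and Ndufs5 (-0.95), Cox6c and Cox5b being structural subunits of complex IV and Ndufs5 an accessory subunit of complex I.

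Of the mitochondrial members mt-Atp8 passed higher at passage 8 (1.25, SE 0.37, adjusted p = 0.0269) and 12 did not pass, with a median of 0.34; in 13 libraries 7 passed higher and 0 lower, with a median of 0.45. mt-Co1 had 4797, 4533 and 6035 TPM at passage 8 and 2205, 4311 and 685 TPM at passage 2, with a change of 1.01 (SE 0.47, adjusted p = 0.135) with all libraries and 0.65 (adjusted p = 0.00885) in 13. Each of the 27 members passing here also passed for irradiated cells, and both comparisons share the Atm+/+ passage 2 libraries. The same overlap over all genes was not counted, so it is not read as a trait of these members. The count of 27 was 3 without Atm+/+ passage 8 replicate 3 (11.7% of all genes) and 9 and 14 without replicates 1 and 2 (14.1 and 14.9%). It was 12, 53 and 7 without passage 2 replicates 1, 2 and 3 (15.8, 35.2 and 17.8%). It was 17 without irradiated replicate 1 or 3 and 61 without Atm-/- passage 8 replicate 3, which are in neither group but in the fit. There 18.9, 18.9 and 40.3% of all genes passed. Summed macrophage markers ran from 68.0 to 107.9 TPM at passage 8 and from 2105 to 2408 TPM at passage 2, and summed smooth muscle and pericyte markers from 8917 to 9728 TPM at passage 8 and from 2853 to 3602 TPM at passage 2. Their part in these changes was not tested.

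Irradiated cells were next compared with Atm+/+ passage 8 cells. Ndufa6 passed lower (205, 196 and 223 TPM in irradiated and 247, 247 and 251 TPM in passage 8 cells, without overlap; -0.46, SE 0.13, adjusted p = 0.0434) and the other 93 members did not pass, where 6.89% of all genes did and 2.59% passed lower. The nuclear median was -0.15 on scaled counts, against -0.01 over all genes, and 0.07 by limma on log2 (TPM + 1), against 0.14 over all genes. The mitochondrial median was 0.07 on scaled counts. Among the next lowest adjusted p were Cox7a2l, with 193, 181 and 182 TPM in irradiated and 256, 243 and 244 TPM in passage 8 cells (-0.62, SE 0.19, adjusted p = 0.0699), and Atp5g2 (-0.56, SE 0.18, adjusted p = 0.0992). In 13 libraries 8 members passed, 2 higher and 6 lower, against 25.5% of all genes, with medians of -0.13 (nuclear) and 0.09 (mitochondrial), and Ndufa6 passed again (-0.44, adjusted p = 0.0072). Summed smooth muscle and pericyte markers (14164 to 16085 TPM in irradiated and 8917 to 9728 TPM in passage 8 cells) and macrophage markers (1657 to 2771 and 68.0 to 107.9 TPM) also differed, and their part was not tested. Ndufa6 no longer passed without any single irradiated or Atm+/+ passage 8 library, nor without Atm+/+ passage 2 replicate 1, any Atm-/- passage 2 library or Atm-/- passage 8 replicate 2.

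Genotypes were compared within a passage. At passage 8, where 9.32% of all genes passed and 5.03% passed higher, 6 nuclear members passed higher in Atm-/- cells and 0 lower, with a nuclear median of 0.57 against -0.08 over all genes. They were the complex I subunits Ndufa1, Ndufa7 and Ndufs8, the complex IV subunits Cox5b and Cox7a2, and Atp5l, subunit g of the ATP synthase. Cox5b had 176, 153 and 181 TPM in Atm-/- and 126, 117 and 106 TPM in Atm+/+ passage 8 cells, a change of 0.91 (SE 0.27, adjusted p = 0.0468). Ndufs8 had 135, 113 and 128 TPM in Atm-/- and 95, 90.9 and 92.2 TPM in Atm+/+ cells, a change of 0.79 (SE 0.21, adjusted p = 0.0306). Neither overlapped between genotypes. Cox7a2 had 434, 371 and 508 TPM in Atm-/- and 297, 330.0 and 285 TPM in Atm+/+ cells, also without overlap, a change of 0.91 (SE 0.26, adjusted p = 0.0418). Summed fibroblast markers ran from 2699 to 5607 TPM in Atm-/- and from 11201 to 14288 TPM in Atm+/+ passage 8 cells (10 of 10 detected in both). Summed smooth muscle and pericyte markers ran from 3725 to 5221 TPM in Atm-/- and from 8917 to 9728 TPM in Atm+/+ cells, and mesothelial markers from 23.3 to 78.4 TPM in Atm-/- and from 10.9 to 11.2 TPM in Atm+/+ cells. The part of these markers was not tested. The other changes were 0.71 for Atp5l, 0.62 for Ndufa7 and 0.58 for Ndufa1.

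In 13 libraries 30 nuclear members passed higher at passage 8 and 1 lower (Cox4i2; median 0.35), against 25.0% of all genes in either direction and 13.3% higher, and the 6 named members passed higher again. Set singly against the 3 Atm+/+ passage 8 libraries, Atm-/- replicates 1, 2 and 3 had 73, 64 and 60 of the 81 nuclear members above all of them, where 38.0, 34.5 and 34.0% of all genes were. The count of 6 was 0 without any single Atm+/+ passage 8 library, where 3.15 to 3.92% of all genes passed. It was 10, 39 and 1 without Atm-/- passage 8 replicates 1, 2 and 3 (7.11, 17.7 and 9.67% of all genes). Without Atm+/+ passage 2 replicates 2 and 3 it was 27 and 37 (12.8 and 18.3%), and 1 or 2 without any other library (6.14 to 7.06%). Of the 13 mitochondrial members 0 passed by edgeR in either fit or by DESeq2, 0 had an unadjusted edgeR p under 0.05, and the medians were -0.33 with all libraries and 0.05 in 13.

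At passage 2 no member passed between Atm-/- and Atm+/+ cells by edgeR with all libraries, where 0.969% of all genes passed. DESeq2 called 2 members, and 18 had an unadjusted edgeR p under 0.05. The nuclear median was -0.38 with all libraries, -0.16 in 13 libraries and -0.09 by limma on log2 (TPM + 1), where the median over all genes was 0.04, 0.01 and 0.22. The mitochondrial median was 0.23 with all libraries and 0.22 in 13. The nuclear members with the lowest adjusted p were Cox6b2, with 167, 154 and 160.3 TPM in Atm-/- and 219, 222 and 218 TPM in Atm+/+ cells (-0.72, SE 0.19, adjusted p = 0.107), Uqcrfs1, the Rieske protein of complex III (0.48, SE 0.15, adjusted p = 0.174), and Cox6a2 (0.98, SE 0.31, adjusted p = 0.176). The Cox6b2 ranges did not overlap, and it was the member that passed in 13 libraries (-0.54, adjusted p = 0.0172), where 5.35% of all genes passed. The nuclear members split by Atm+/+ library: 62, 5 and 62 of 81 were above all Atm-/- passage 2 libraries in replicates 1, 2 and 3, where 38.1, 32.4 and 37.9% of all genes were. Most nuclear members thus lay above the Atm-/- libraries in replicates 1 and 3 and not in replicate 2. Summed macrophage markers ran from 1056 to 1564 TPM in Atm-/- and from 2105 to 2408 TPM in Atm+/+ passage 2 cells. Smooth muscle and pericyte markers ran from 6378 to 7847 TPM in Atm-/- and from 2853 to 3602 TPM in Atm+/+ cells, while fibroblast markers overlapped. The part of these markers was not tested.

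Within Atm-/- cells, passage 8 differed from passage 2 in 2 members, both higher, where 13% of all genes passed and 4.76% passed higher. Cox6a2 had 16.6, 34.9 and 20 TPM at passage 8 and 16.6, 11.1 and 16.5 TPM at passage 2, a change of 1.03 (SE 0.30, adjusted p = 0.0394). Cox7a2l had 261, 269 and 301 TPM at passage 8 and 232, 226 and 213 TPM at passage 2, a change of 0.71 (SE 0.19, adjusted p = 0.0236). In 13 libraries the changes were 0.97 and 0.43, both passing. The Cox7a2l groups did not overlap, whereas Cox6a2 in passage 8 replicate 1 was level with the passage 2 libraries. Cox6b2 had 85.4, 73.7 and 83.7 TPM at passage 8 and 167, 154 and 160.3 TPM at passage 2, without overlap, and just missed the threshold (-0.61, SE 0.19, adjusted p = 0.0544), while it passed lower in 13 libraries (-0.83, adjusted p = 0.000196). The nuclear median was 0.27 on scaled counts and -0.12 by limma on log2 (TPM + 1), where the median over all genes was -0.08 and -0.32. The mitochondrial median was -0.08 on scaled counts. In 13 libraries the nuclear and mitochondrial medians were 0.13 and 0.30, where 3 members passed higher and 2 lower (27.2% of all genes passed). Summed macrophage markers ran from 19.5 to 61.6 TPM at passage 8 and from 1056 to 1564 TPM at passage 2, summed fibroblast markers from 2699 to 5607 TPM at passage 8 and from 9169 to 12005 TPM at passage 2, and smooth muscle and pericyte markers from 3725 to 5221 TPM at passage 8 and from 6378 to 7847 TPM at passage 2. Their part was not tested. The count of 2 was 0 when replicate 2 or 3 of Atm-/- passage 2 was left out (8.22 and 7.92% of all genes). It was 4, 10 and 2 without Atm-/- passage 8 replicates 1, 2 and 3 (12.4, 17.4 and 15.0%). Without Atm+/+ passage 2 replicates 2 and 3 it was 5 and 4 (14.4 and 19.1%).

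The passage effect was then compared between genotypes as the difference of the Atm-/- effect and the Atm+/+ effect. It passed for 6 nuclear members, all positive, where 4.43% of all genes passed and 2.46% were positive: Ndufb10 (2.01, SE 0.53, adjusted p = 0.0499), Cox6c (1.75, SE 0.45, adjusted p = 0.0465), Uqcr10 (1.48, SE 0.37, adjusted p = 0.0447), Ndufs8 (1.19, SE 0.29, adjusted p = 0.041), Ndufa8 (1.17, SE 0.30, adjusted p = 0.0486) and Ndufa12 (1.02, SE 0.25, adjusted p = 0.0421). Ndufs8 had 135, 113 and 128 TPM at passage 8 and 128, 124 and 133 TPM at passage 2 in Atm-/- cells, whose ranges overlapped, against 95, 90.9 and 92.2 TPM at passage 8 and 145, 129 and 144 TPM at passage 2 in Atm+/+ cells, whose ranges did not. Uqcr10, a small subunit of complex III, had 455, 388 and 511 TPM at passage 8 and 423, 399.7 and 397 TPM at passage 2 in Atm-/- cells, against 347, 329.8 and 305 TPM and 491, 450.1 and 598 TPM in Atm+/+ cells. Again the passages overlapped in Atm-/- and not in Atm+/+ cells. The nuclear median difference was 0.88 with all libraries, 0.51 in 13 libraries and 0.25 by limma on log2 (TPM + 1), where the median over all genes was -0.14, -0.02 and -0.50. The mitochondrial one was -0.58 with all libraries, -0.22 in 13 libraries and -1.42 by limma. In 13 libraries 19 members passed with a positive and 2 with a negative difference (13.8% of all genes passed), the 6 named among them at 0.75 to 0.93. The count of 6 was 0 without any single library outside Atm-/- passage 8 other than Atm+/+ passage 2 replicate 2 (0.424 to 2.33% of all genes). Without that replicate it was 52 (24.7% of all genes). It was 20, 47 and 2 without Atm-/- passage 8 replicates 1, 2 and 3 (6.09, 15.9 and 5.79%).

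Isoforms of restricted expression are given beside their general partners. Cox6a2, known from heart and skeletal muscle, was the nuclear member that passed higher in irradiated and in Atm+/+ passage 8 cells when 48 and 25 others passed lower. It had 30.8, 36.4 and 26.9 TPM in irradiated, 39, 43.3 and 32.1 TPM in Atm+/+ passage 8 and 6.95, 5.58 and 6.11 TPM in Atm+/+ passage 2 cells. Its changes were 1.88 (SE 0.31, adjusted p = 0.00123) for irradiated against passage 2 cells and 2.38 (SE 0.32, adjusted p = 0.000139) for passage 8 against passage 2. Both groups were well above passage 2 and overlapped each other. Cox6a1, the general isoform, had 896, 816 and 908 TPM in irradiated, 779, 742 and 688 TPM in Atm+/+ passage 8 and 997, 743 and 1050.0 TPM in Atm+/+ passage 2 cells and passed in neither comparison. Cox6a2 was the minor isoform in every library.

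Cox6b2 was lowest at passage 8, in Atm-/- passage 8 (85.4, 73.7 and 83.7 TPM) and Atm+/+ passage 8 cells (92, 88.2 and 99.5 TPM), which did not overlap in TPM. The genotypes did not pass the test there, and the change on scaled counts had the other sign (0.16, SE 0.19, adjusted p = 0.615). Atm-/- passage 2 (167, 154 and 160.3 TPM) and irradiated cells (148, 155 and 168 TPM) lay between and overlapped, and Atm+/+ passage 2 cells were highest (219, 222 and 218 TPM). Its general partner Cox6b1 had 746, 740.0 and 737 TPM in irradiated, 709.6, 778 and 641 TPM in Atm+/+ passage 8 and 1014, 854 and 1196 TPM in Atm+/+ passage 2 cells and passed lower in both comparisons with passage 2 (-0.95 and -0.80).

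Cox4i2, an isoform known from lung and from hypoxia, had 27.1, 67.4 and 46.1 TPM in Atm-/- passage 8 and 126, 117 and 109.6 TPM in Atm+/+ passage 8 cells. These did not overlap, and the change of -0.99 (SE 0.34, adjusted p = 0.0778) did not pass with all libraries and passed in 13 (-1.19, adjusted p = 0.0257). Cox4i1, the general isoform, was lower in irradiated (784, 796 and 807 TPM) than in Atm+/+ passage 2 cells (1169, 955 and 1269.8 TPM; -0.99, SE 0.24, adjusted p = 0.0106). Ndufa4l2 exceeded Ndufa4 in every library, with 1105, 899.8 and 1070.4 TPM in irradiated and 1119.8, 892 and 1354 TPM in Atm+/+ passage 2 cells, and passed in none of the 7 comparisons. Ndufa4 had 196, 217 and 205 TPM in irradiated and 253, 218 and 232 TPM in Atm+/+ passage 2 cells and passed lower there (-0.64, SE 0.19, adjusted p = 0.0217). Cox7a1, a muscle isoform, stayed between 1.28 and 10.4 TPM and passed in no comparison, while its general partner Cox7a2 passed in 2. Of the remaining general isoforms Cox7b passed lower in irradiated (-0.64) and in Atm+/+ passage 8 cells (-0.50) against Atm+/+ passage 2, and Cox8a did not (-0.39 and -0.21).

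**Figure D4:**
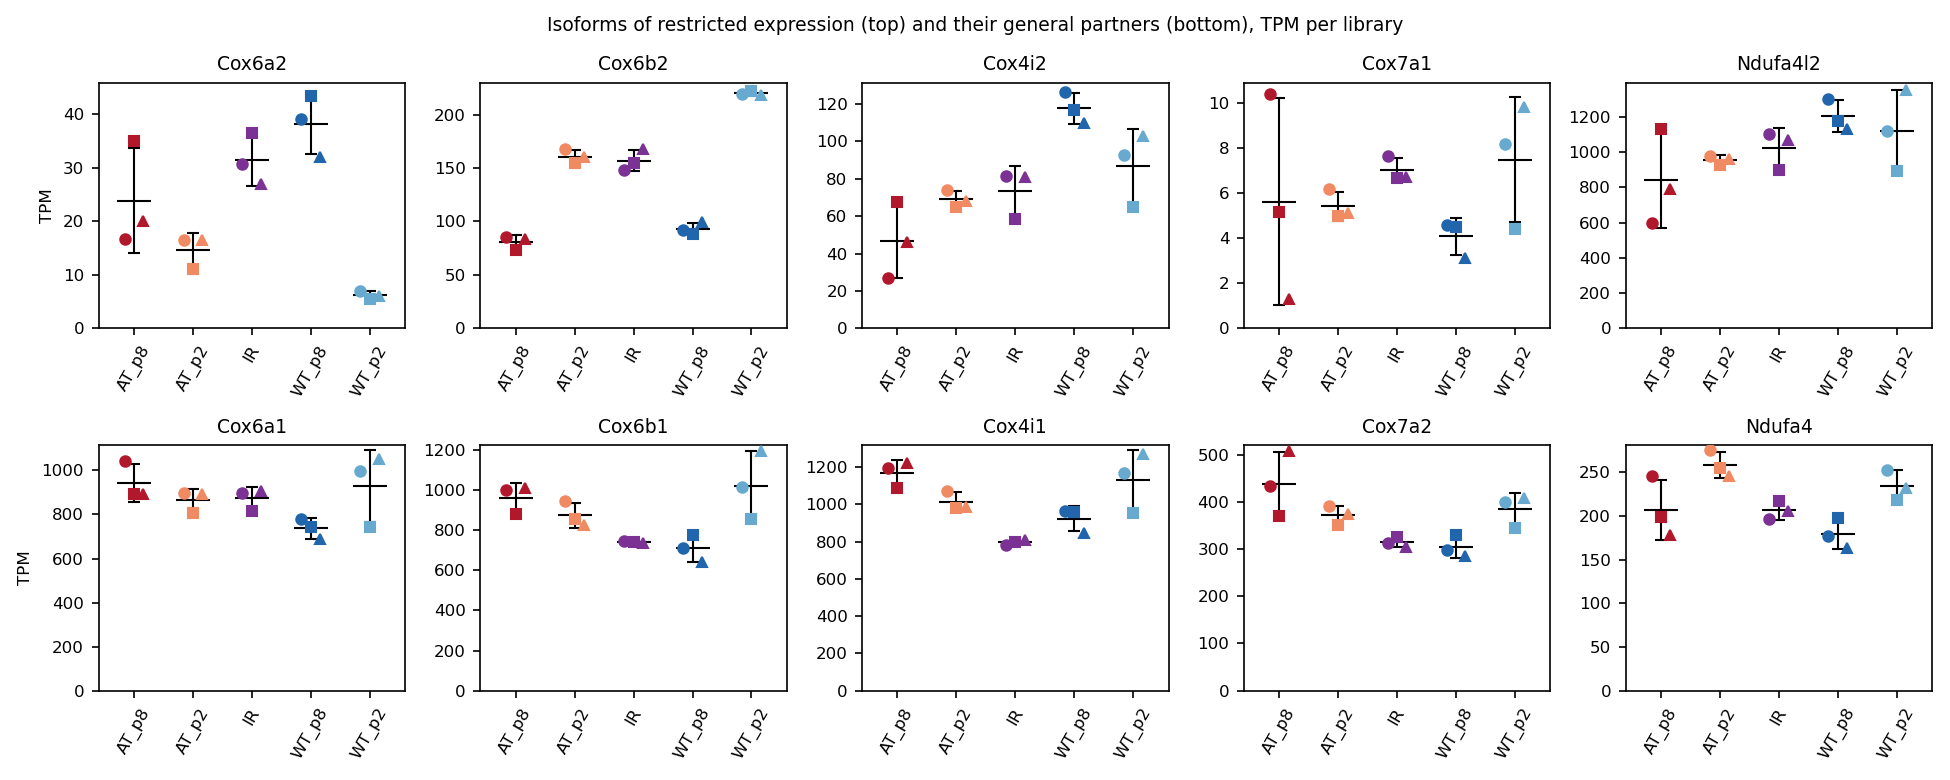
TPM per library of 5 isoforms of restricted expression (top row) and their general partners (bottom row) in the 5 groups. Circles, squares and triangles are replicates 1, 2 and 3 and black bars are mean and SD (n = 3); Cox6a2 is lowest in WT_p2 (5.58 to 6.95 TPM) and Cox6b2 is highest there.

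Nuclear members did not all follow the larger group in the libraries that stood apart. Ndufs1, the large iron-sulfur subunit of complex I, had 23.7, 23.6 and 4.14 TPM in Atm-/- passage 8 and 18.4, 28.5 and 4.23 TPM in Atm+/+ passage 2 cells, so that replicate 3 of both groups was far below the others. Uqcrc2, a core protein of complex III, had 56.1, 58.8 and 5.95 TPM in Atm-/- passage 8 and 40.1, 80.3 and 8.33 TPM in Atm+/+ passage 2 cells, with the same libraries low. Ndufa2 was high in both, with 581, 588 and 2137 TPM in Atm-/- passage 8 and 995, 657 and 1754 TPM in Atm+/+ passage 2 cells. Ndufs1 and Uqcrc2 were chosen for mention after their values were seen.

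The 13 mitochondrial members share polycistronic transcripts, yet their proportions differed between these libraries. mt-Co1 had 3498, 3647 and 589 TPM in Atm-/- passage 8 cells, 3227, 4271 and 4177 TPM in Atm-/- passage 2 cells and 2205, 4311 and 685 TPM in Atm+/+ passage 2 cells. mt-Nd6, the member on the other strand, had 3066, 2865 and 936 TPM in Atm-/- passage 8, 2211, 2463 and 2689 TPM in Atm-/- passage 2 and 1433, 2375 and 4793 TPM in Atm+/+ passage 2 cells. In Atm+/+ passage 2 replicate 3 mt-Nd6 and mt-Nd5 were thus at their highest of the 15 libraries when mt-Co1 was near its lowest. Of that library's mitochondrial subunit TPM, mt-Nd6 took 32.4%, mt-Nd5 14.5% and mt-Co1 4.63%, against 9.41, 1.08 and 14.5% in replicate 1 and 11.2, 3.10 and 20.4% in replicate 2. In Atm-/- passage 8 replicate 3, mt-Co2 took 37.7%, against 22.6 and 22.0% in replicates 1 and 2. The strandedness of the libraries is not given in the sources used here; reads of mt-Nd6 and of transcripts opposite to it cannot be told apart.

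The complex III member mt-Cytb had 3149.9, 3276 and 3319 TPM in irradiated and 1499.7, 2343 and 560.0 TPM in Atm+/+ passage 2 cells, without overlap, and its change of 0.83 (SE 0.50, adjusted p = 0.228) passed in 13 libraries (0.56, adjusted p = 0.00264). mt-Nd1 (0.62), mt-Nd2 (0.81), mt-Nd4 (0.56), mt-Co3 (0.50) and mt-Atp6 (0.39) also passed higher in irradiated cells in that fit. mt-Nd3 passed lower (-0.43), and mt-Co2 (0.06), mt-Nd5 (0.62) and mt-Nd6 (-0.01) did not pass. mt-Co2 passed in none of the 7 comparisons, with changes between -0.05 and 0.16 on the log2 scale with all libraries.

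**Figure D5:**
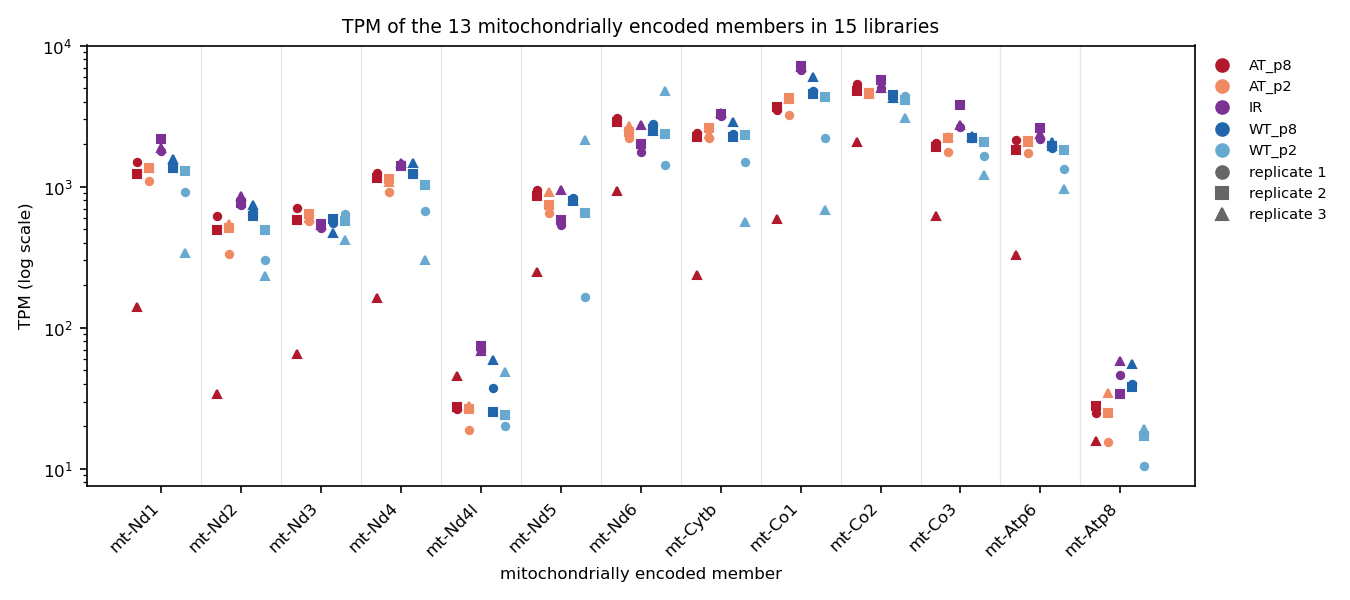
TPM (log scale) of the 13 mitochondrially encoded members in 15 libraries, coloured by group with symbols for replicates. Atm-/- passage 8 replicate 3 (dark red triangles) is low for most members, with mt-Co1 at 589 TPM, and mt-Nd5 and mt-Nd6 are highest in Atm+/+ passage 2 replicate 3 (light blue triangles).

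Other genes that build or supply the complexes were read from lists. Mitochondrial ribosomal proteins, which translate the mitochondrial members, were counted first: of 77 tested, 0 passed higher and 36 lower in irradiated against Atm+/+ passage 2 cells (median -0.53; -0.01 over all genes), 0 higher and 24 lower in Atm+/+ passage 8 against passage 2 cells (median -0.51; 0.00), and 12 higher and 0 lower in Atm-/- against Atm+/+ passage 8 cells (median 0.47; -0.08). In 13 libraries the counts were 3 higher and 48 lower (median -0.39), 1 higher and 34 lower (median -0.30), and 32 higher and 0 lower (median 0.34), beside 46.3, 40.1 and 25.0% of all genes passing in either direction. In Atm-/- against Atm+/+ passage 8 cells Mrps6 changed by 1.04 (SE 0.24, adjusted p = 0.0171) and Mrpl27 by 0.85 (SE 0.19, adjusted p = 0.0156). Of 52 assembly factors, 2 passed higher and 14 lower in irradiated cells (median -0.16), 1 higher and 8 lower in Atm+/+ passage 8 cells (median -0.13), and 5 higher and 0 lower in Atm-/- passage 8 against Atm+/+ passage 8 cells (median 0.33), where 27.5, 23.3 and 9.32% of all genes passed in either direction. In 13 libraries the counts were 5 higher and 17 lower (median -0.11), 6 higher and 12 lower (median -0.12), and 14 higher and 1 lower (median 0.16). Sdhaf1, an assembly factor of complex II, fell by 1.53 (adjusted p = 0.00231) in irradiated and by 1.34 (adjusted p = 0.00438) in Atm+/+ passage 8 cells, each against Atm+/+ passage 2. Uqcc2, a complex III assembly factor, was higher by 1.48 (SE 0.34, adjusted p = 0.0171) in Atm-/- passage 8 cells.

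Of 40 genes of mitochondrial DNA maintenance and transcript processing, 0 passed higher and 7 lower in irradiated cells against Atm+/+ passage 2 (median -0.02), near the 16.5% of all genes that passed lower. In 13 libraries 2 passed higher and 8 lower (median 0.00), where 46.3% of all genes passed in either direction. Slirp, which stabilises mitochondrial mRNAs with Lrpprc, fell by 1.25 (adjusted p = 0.0143). Tfam packages mitochondrial DNA and helps to start its transcription. It had 9.59, 11.2 and 9.39 TPM in irradiated and 12.7, 14.9 and 14.2 TPM in Atm+/+ passage 8 cells, without overlap. The change was -0.68 (SE 0.18, adjusted p = 0.0314). Against Atm+/+ passage 2 it did not pass with all libraries (-0.19, adjusted p = 0.423) but passed lower in 13 (-0.31, adjusted p = 0.0301). Polrmt, the mitochondrial RNA polymerase, passed in none of the 7 comparisons. Of 17 regulators of biogenesis, 2 passed higher and 3 lower in irradiated against Atm+/+ passage 2 cells with all libraries (median 0.30). In 13 libraries 7 passed higher and 1 lower (median 0.41), so the balance of directions rested on the libraries used. Of all genes 27.5% passed with all libraries and 46.3% in 13. Nrf1 fell by 0.55 (adjusted p = 0.0451), a call lost in 13 libraries (-0.25, adjusted p = 0.0547), and Gabpa did not pass (1.04, adjusted p = 0.0636) but passed in 13 (0.68, adjusted p = 0.00954). Ppargc1a, a coactivator of respiratory genes, passed higher in irradiated cells (2.53, SE 0.80, adjusted p = 0.0329; 2.82 in 13 libraries) at levels near the limit of detection, 0.135, 0.232 and 0.190 TPM in irradiated and 0.0276, 0.0150 and 0.0257 TPM in Atm+/+ passage 2 cells.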

How the data were processed

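RNA-seq of 15 libraries (TruSeq RNA kit, total RNA) was used. The authors deposited read counts per gene and TPM values, and the submitters' processing notes name featureCounts, SAMtools 1.3.1 and the mm10 build. Which aligner was used, and whether libraries were stranded, is not given in the sources used here. Counts depend on how reads shared with processed pseudogenes, nuclear copies of mitochondrial DNA and overlapping mitochondrial genes were assigned, so members with such copies are uncertain.

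Counts were fitted as deposited with edgeR 4.0.16 (R 4.3.3; quasi-likelihood test, robust, TMM scaling, filterByExpr, 1 fit with a mean for each of the 5 groups), with Benjamini-Hochberg adjustment over all 18167 genes tested and a threshold of 0.05. All adjusted p are from this test unless DESeq2 1.42.0 or limma 3.58.1 is named, and all are two-sided. A second fit used 13 libraries. Deposited TPM values served for levels, sums and, as log2 (TPM + 1) or log2 (TPM + 0.1) for genes reaching 0.5 TPM, for limma. Depth was 13.6 to 39.2 M counts. The p-values rest on the spread between libraries of the same group, estimated jointly over all groups in the fit. Tables were handled with Python 3.11.15 and pandas 2.3.3. The fits were tested on simulated counts in which all libraries shared the same mean profile, apart from genes changed in irradiated cells. No simulated library stood apart, so that test does not bear on how the counts moved with the libraries used. Alternatives were another scaling, other filters, other fits, a replicate block and each library left out.

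The members, lists and the 13-library fit were chosen with earlier results of these data known. Named were all 13 mitochondrial members, the restricted isoforms with their partners, the 2 most abundant nuclear members per complex, up to 8 passing nuclear members with the largest change each way per comparison (up to 3 by adjusted p where fewer than 3 passed), up to 3 genes per list and comparison, 5 regulators, Atm and the members whose promoters are printed.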

Additional observations from a re-analysis of the deposited data

Results flagged for a closer look

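The passage effect differed between genotypes, by the edgeR test of the difference itself, for 6 nuclear members of 81, where 4.43% of all genes passed and 2.46% passed with a positive difference. The count was 0 with the replicate block (0.793% of all genes) and with only the groups compared (0.673%). It was also 0 without any single library other than the Atm-/- passage 8 ones and Atm+/+ passage 2 replicate 2 (0.424 to 2.33%). The Atm-/- effect minus the Atm+/+ effect was 2.01 for Ndufb10, 1.75 for Cox6c, 1.48 for Uqcr10, 1.19 for Ndufs8, 1.17 for Ndufa8 and 1.02 for Ndufa12 on the log2 scale. Ndufb10 had 313, 284 and 542 TPM at passage 8 and 283, 256 and 252 TPM at passage 2 in Atm-/- cells, against 220.4, 231 and 195 TPM at passage 8 and 349, 265 and 457 TPM at passage 2 in Atm+/+ cells. The third replicates of Atm-/- passage 8 and Atm+/+ passage 2, which stood apart in genes detected, enter the difference with the same sign, and in 13 libraries the 6 differences were 0.75 to 0.93, with adjusted p of 0.0186 to 0.0303.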

How the results depend on the processing

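The nuclear median stayed below 0 in irradiated and in Atm+/+ passage 8 cells, each against Atm+/+ passage 2, under every alternative run, while the counts passing moved, as did the share of all genes passing, given beside each in parentheses. For comparisons after the first listed, alternatives with a count equal or close to the one first given are left out. The count of members passing for irradiated against Atm+/+ passage 2 cells was 50 (27.5%). It was 33 (32.7%) with limma on log2 (TPM + 1) and 29 (26.4%) with limma on log2 (TPM + 0.1). It was 34 with no filter (12.7%), with only the groups compared (21.6%) and with the replicate block (20.6%). It was 56 (37.0%) with DESeq2 and 69 (46.3%) in 13 libraries. It was 48 (27.7%) with DESeq2 size factors, 45 (27.2%) without mitochondrial genes in the scaling and 49 (34.9%) with a strict filter. For Atm+/+ passage 8 against passage 2 it was 27 (23.3%), and it was 45 (32.5%) with DESeq2, 17 (11.2%) with no filter, 7 (15.9%) with only the groups compared, 11 (16.5%) with the replicate block and 55 (40.1%) in 13 libraries. For Atm-/- against Atm+/+ at passage 8 it was 6 (9.32%), and it was 36 (19.8%) with DESeq2, 0 (0.111%) with only the groups compared, 3 (8.27%) with the replicate block and 31 (25.0%) in 13 libraries. For the difference of passage effects it was 6 (4.43%), and it was 49 (19.4%) with DESeq2, 2 (1.69%) with no filter, 23 (9.37%) with a strict filter, 0 (0.673%) with only the groups compared, 3 (4.82%) and 2 (2.14%) with limma at the pseudocounts of 1 and 0.1, 0 (0.793%) with the replicate block and 21 (13.8%) in 13 libraries. For Atm-/- passage 8 against passage 2 it was 2 (13%), and it was 5 (20%) with DESeq2, 1 (6.51%) with no filter, 0 (5.12%) with only the groups compared, 1, now lower, (9.99%) with the replicate block, 3, all lower, with limma at either pseudocount (13.2 and 12.5%) and 5 (27.2%) in 13 libraries. For irradiated against Atm+/+ passage 8 cells it was 1 (6.89%), and it was 0 with DESeq2 size factors, without mitochondrial genes in the scaling, with no filter, with a strict filter and with the replicate block (3.32 to 7.68%), 21 with only the groups compared, where 36.4% of all genes passed, and 8 (25.5%) in 13 libraries. For Atm-/- against Atm+/+ at passage 2 it was 0 (0.969%), and it was 2 (5.06%) with DESeq2 and 1 (5.35%) in 13 libraries. The causes of these moves were not tested.

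Leaving out 1 library at a time gave counts of 15 to 67, 3 to 61, 0 to 39, 0 to 52, 0 to 10, 0 to 5 and 0 to 7 in the same order of comparisons. In that order the share of all genes passing ran from 14.4 to 44.4, 11.7 to 40.3 and 3.15 to 18.3%. For the remaining comparisons it was 0.424 to 24.7, 7.92 to 19.1, 3.86 to 12.6 and 0.327 to 9.58%. The log2 ratio of mitochondrial to nuclear sums differed by 0.92 to 1.39 for irradiated against Atm+/+ passage 2 cells and by 0.70 to 1.11 for Atm+/+ passage 8 against passage 2 across alternatives. mt-Nd4 reversed for Atm-/- passage 8 against passage 2, at 0.39 (adjusted p = 0.0247) in 13 libraries against -0.08 with all. Among other values of named members under the alternatives, 5694 kept their call or its absence, 174 gained a call and 481 lost one. A change of sign was counted as a reversal only where a call was made, so uncalled values could change sign. For Atm-/- passage 8 against passage 2, the mitochondrial members above 0 were 5 with all libraries and 13 in 13 libraries. The limma fits on TPM moved the median of all genes, by 0.32 and 0.45 for irradiated against Atm+/+ passage 2 cells and by -0.29 and -0.45 for Atm-/- against Atm+/+ passage 8 cells at the pseudocounts of 1 and 0.1. At a pseudocount of 1 the nuclear medians were -0.28 and 0.20 there, and the nuclear median turned negative for Atm-/- passage 8 against passage 2 (-0.12; all genes -0.32) and positive for irradiated against Atm+/+ passage 8 cells (0.07; all genes 0.14). Whether same-numbered replicates share a strain is not given in the sources used here. Correlations of same-numbered deviations ran from -0.20 to 0.22, which does not settle it. What a call lost under the block means therefore cannot be told. With 3 libraries a group, and 1 of 13.6 M counts, differences smaller than the printed standard errors allow were not detectable.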

Other observations

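Genes that feed or support the respiratory chain were counted in the same fit. Of 21 genes of the citric acid cycle and pyruvate entry, 3 passed higher and 3 lower in irradiated against Atm+/+ passage 2 cells (median 0.09; -0.01 over all genes), a share near the 27.5% of all genes that passed. In 13 libraries 6 passed higher and 4 lower (median 0.10), where 46.3% of all genes passed. Idh2, the mitochondrial NADP-dependent isocitrate dehydrogenase, was lower by edgeR in irradiated cells against Atm+/+ passage 2 (-1.23, adjusted p = 0.000451) and against Atm+/+ passage 8 (-0.98, SE 0.17), and in Atm-/- passage 8 cells against Atm-/- passage 2 (-1.14, SE 0.18) and against Atm+/+ passage 8 (-1.04, SE 0.17). Of 17 genes of electron carriers and coenzyme Q synthesis, 0 passed higher and 4 lower in irradiated against Atm+/+ passage 2 cells with all libraries (median 0.19). In 13 libraries 4 passed higher and 4 lower (median -0.21), so no direction is given. Of all genes 27.5% passed with all libraries and 46.3% in 13. In Atm-/- against Atm+/+ passage 8 cells 3 passed higher and 0 lower (median 0.03), beside 9.32% of all genes. In 13 libraries 5 passed higher and 0 lower (median 0.06), beside 25.0%. The 3 passing with all libraries were Cycs (0.77, SE 0.18), which encodes cytochrome c, and the coenzyme Q synthesis genes Coq7 (0.67, SE 0.17) and Coq3 (0.62, SE 0.18).

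Of 26 genes of mitochondrial import, chaperones and membrane proteins, 7 passed higher and 1 lower in Atm+/+ passage 8 against passage 2 cells (median 0.16; 0.00 over all genes), 6 higher and 0 lower in Atm-/- passage 8 against passage 2 cells (median 0.29; -0.08), and 4 higher and 0 lower in Atm-/- against Atm+/+ passage 8 cells (median 0.10; -0.08), where 23.3, 13 and 9.32% of all genes passed. In 13 libraries the counts were 9 higher and 1 lower (median 0.06), 13 higher and 0 lower (median 0.25), and 8 higher and 0 lower (median 0.21). There 40.1, 27.2 and 25.0% of all genes passed. In Atm+/+ cells at passage 8 the chaperone gene Hspa9 (0.99, SE 0.14) and the protease gene Lonp1 (0.72, SE 0.12) were higher, in the comparison in which 25 nuclear subunit genes were lower. Hspe1, a co-chaperonin gene, was higher in Atm-/- than in Atm+/+ passage 8 cells (1.05, SE 0.19).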
